A study of Mus musculus with 6 samples.

Results

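Stress-type cardiomyocyte nuclei were examined in single-nucleus RNA sequencing of the mouse left ventricle. A cardiomyocyte nucleus was counted as stress-type when it held at least 2 unique molecular identifiers (UMIs, 1 per captured RNA molecule) summed over 5 selection genes, Nppb, Ryr3, Scube2, Slc24a2 and Kctd16. A total of 3156 nuclei met this rule among 7264 cardiomyocyte nuclei, which is 43.4%, and among 69249 deposited barcodes. The remaining 4108 nuclei are called other cardiomyocyte nuclei. Because the rule reads expression, the levels of the 5 genes and the difference of stress-type from other cardiomyocyte nuclei are given as descriptions and carry no test. Only the change of this difference between groups was tested, for genes besides the 5.

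There were 3 groups of male mice aged 12 weeks with n = 2 libraries each. WT-CD mice were wild-type littermates on a control diet (CD). R403Q-CD mice were heterozygous for the mutation of the cardiac α-myosin heavy chain that models hypertrophic cardiomyopathy (Myh6+/R404Q, labelled R403Q) and ate the same diet. R403Q-EMPA mice carried the same allele and ate that diet with empagliflozin (EMPA), an inhibitor of the sodium-glucose cotransporter SGLT2, at 0.15 mg per g of diet, about 15 mg/kg. Mice were put on the diets when 9 to 10 weeks old. Since the labels also name a longer course than this leaves time for, no treatment length is stated. None of these 6 libraries came from wild-type mice given EMPA. The labels do not say whether each library came from 1 mouse, so p-values measure the spread between these libraries only.

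Ventricular cardiomyocytes under mechanical load or injury reactivate genes of the fetal heart. The best known are Nppb and Nppa, which encode the B-type and atrial natriuretic peptides, hormones that promote salt excretion and vasodilation. The skeletal muscle actin Acta1 and the ankyrin repeat protein Ankrd1, which shuttles between the sarcomere and the nucleus, are further members of this program. Of the other selection genes, Ryr3 encodes a ryanodine receptor calcium release channel, Slc24a2 a potassium-dependent sodium-calcium exchanger, Kctd16 an auxiliary subunit of the GABA-B receptor and Scube2 a secreted and cell surface protein with EGF-like domains.

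Libraries held 31787308 to 45397128 UMIs in total, and stress-type nuclei summed to 2537478 to 10010649 UMIs per library. No barcode of a stress-type nucleus occurred in a second library. Replicate libraries of a group differed by more than sampling noise in their stress-type sums, with a chi-square of 3.62 to 9.12 for each degree of freedom. The library R403Q-EMPA 1 stood apart in its natriuretic peptide: other cardiomyocyte nuclei held 541 CPM (UMIs of a gene relative to all UMIs summed, in ppm) of Nppa there and 11.8 to 57.0 CPM in the remaining 5 libraries. Calls that were lost without this library are given as such beside the genes. The labels name no batch, and a batch that coincided with the groups cannot be told apart from them.

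The label was checked against genes that the rule did not use. Cardiomyocyte markers such as Tnnt2, Actn2 and Pln summed to 53301 to 62724 CPM in stress-type nuclei. In every library, stress-type nuclei held more Nppa, Ankrd1 and Acta1 than other cardiomyocyte nuclei, whereas Myh7, the slow myosin usually counted with them, differed by a mean log2 ratio of only 0.04. Defining genes of the atrium and the sinus node were near or at 0. Bmp10 and Isl1 had no UMI in stress-type nuclei of any library, which allows up to 0.0871 CPM over all of them. At least 2 UMIs of 7 atrial genes were found in 1.39 to 3.54% of stress-type nuclei per library and in 0.485 to 1.59% of other cardiomyocyte nuclei. At least 2 UMIs of 7 conduction system genes were found in 15.3 to 42.6% of stress-type and 8.54 to 30.3% of other cardiomyocyte nuclei. In WT-CD 1 the order was the reverse, with 16.7% of stress-type and 21.8% of other nuclei. Predicted doublets made up 1.96 to 7.29% of stress-type and 4.31 to 11.3% of other cardiomyocyte nuclei, and only in R403Q-CD 1 was the stress-type share the higher (6.67% against 6.09%).

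Promoter sequences are shown for Nppb, the selection gene that names the state, and for the genes Nppa, Ankrd1 and Acta1 that were higher with it. Each is the 300-base RefSeq window around the transcription start on assembly GRCm38.p6, written in the direction of transcription, and it is an older assembly than the GRCm39 named in the submitters' processing notes. Capitals mark matches, on either strand, to CATTCC, the muscle element bound by TEAD factors. They also mark AGATAA, an element for zinc finger factors of the heart, and the CArG box, bound by serum response factor.
Nppb at chr4:147985650-147985949 (+): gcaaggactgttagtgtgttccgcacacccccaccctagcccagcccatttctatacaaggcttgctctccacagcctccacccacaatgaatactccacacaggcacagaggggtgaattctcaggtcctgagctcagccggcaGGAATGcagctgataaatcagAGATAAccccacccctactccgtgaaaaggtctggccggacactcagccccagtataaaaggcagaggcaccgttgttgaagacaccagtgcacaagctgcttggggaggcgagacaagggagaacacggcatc
Nppa at chr4:148000472-148000771 (+): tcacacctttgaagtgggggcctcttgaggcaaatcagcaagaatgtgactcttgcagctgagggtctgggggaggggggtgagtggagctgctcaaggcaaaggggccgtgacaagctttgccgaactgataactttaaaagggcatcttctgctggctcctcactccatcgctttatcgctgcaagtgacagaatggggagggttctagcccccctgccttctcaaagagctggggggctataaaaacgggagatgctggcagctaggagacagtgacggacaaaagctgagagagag
Ankrd1 at chr19:36119795-36120094 (-): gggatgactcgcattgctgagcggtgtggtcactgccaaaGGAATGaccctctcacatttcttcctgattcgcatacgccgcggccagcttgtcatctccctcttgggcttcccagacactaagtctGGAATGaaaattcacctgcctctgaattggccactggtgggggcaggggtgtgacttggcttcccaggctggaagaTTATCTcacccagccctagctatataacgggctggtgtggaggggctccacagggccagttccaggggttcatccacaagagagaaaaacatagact
Acta1 at chr8:123894726-123895025 (-): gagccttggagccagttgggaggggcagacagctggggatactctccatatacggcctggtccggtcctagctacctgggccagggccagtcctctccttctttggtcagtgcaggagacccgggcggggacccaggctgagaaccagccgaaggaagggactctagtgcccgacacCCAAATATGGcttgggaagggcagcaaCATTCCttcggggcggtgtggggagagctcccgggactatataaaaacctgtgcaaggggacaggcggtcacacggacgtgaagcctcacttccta

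The Nppb window held 1 CATTCC and 1 AGATAA match, the Ankrd1 window 2 and 1, and the Acta1 window 1 CATTCC match and 1 CArG box. The Nppa window held none of these letters. Among 32544 promoter windows of this length, 14.6% held CATTCC, 11.2% AGATAA and 1.64% a CArG box on either strand. A match is a description of sequence and not a bound site.

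Stress-type nuclei were the smallest share of cardiomyocyte nuclei in WT-CD hearts and the largest in R403Q-EMPA hearts. They were 288 of 1228 nuclei (23.5%) and 255 of 770 (33.1%) in WT-CD libraries, 375 of 1032 (36.3%) and 456 of 1000 (45.6%) in R403Q-CD libraries, and 933 of 1560 (59.8%) and 849 of 1674 (50.7%) in R403Q-EMPA libraries. Group means were 28.3% ± 6.83, 41.0% ± 6.55 and 55.3% ± 6.43 (SD, n = 2), and no library overlapped with another group. The share is what the rule selects and is given without a test.

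Detection of at least 2 UMIs rises with depth, and stress-type nuclei were deeper, with median depths of 7602 to 14766 UMIs per library against 6142 to 10756 in other cardiomyocyte nuclei. When each nucleus was thinned to 3000 UMIs, the shares were 10.8% and 11.9% in WT-CD libraries, 17.7% and 25.2% in those of R403Q-CD, and 44.2% and 35.6% in those of R403Q-EMPA. Thinning left out 54 to 199 shallower nuclei per library. The order of the groups was kept, with means of 11.3% ± 0.786, 21.5% ± 5.33 and 39.9% ± 6.04.

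**Figure D1:**
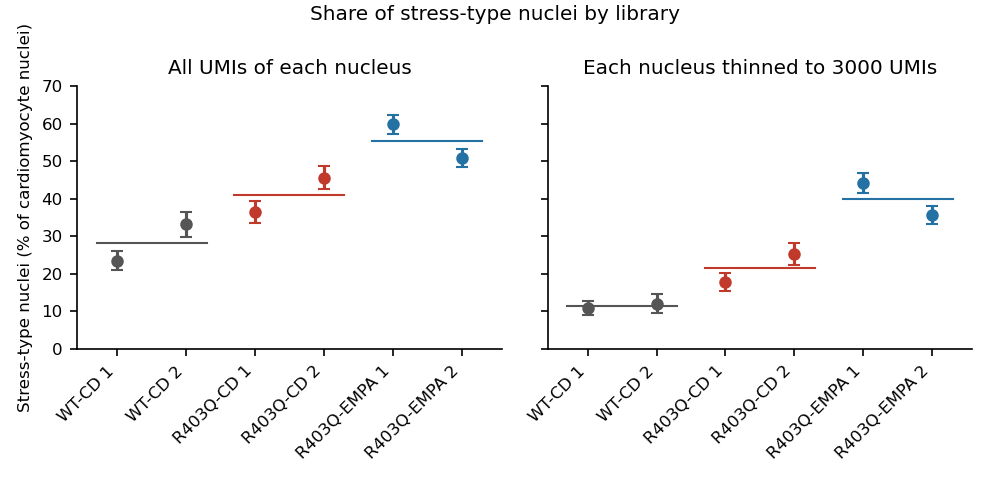
Share of stress-type nuclei among cardiomyocyte nuclei (y axis, percent) in each of the 6 libraries, with all UMIs (left) and after thinning each nucleus to 3000 UMIs (right). Points are libraries, bars are exact 95% binomial intervals that cover counting error only, and lines are group means. R403Q-EMPA libraries sit highest in both panels, at 50.7 and 59.8% without thinning.

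The mitochondrial filter bore on this order. Barcodes that passed the cardiomyocyte gate but held over 5% mitochondrial UMIs numbered 181 and 576 for WT-CD, 1897 and 2079 for R403Q-CD, and 2166 and 1063 for R403Q-EMPA, and were shallow, with median depths of 903.5 to 975 UMIs. Of these barcodes, 0.552 and 2.26% met the rule for WT-CD, 3.90 and 3.99% for R403Q-CD, and 7.62 and 7.81% for R403Q-EMPA. Among them alone, the order of the groups was therefore the same as with the filter. With these barcodes included, the share was 20.5% and 19.9% in WT-CD libraries, 15.3% and 17.5% in those of R403Q-CD, and 29.5% and 34.1% in those of R403Q-EMPA. R403Q-CD was then 3.79 percentage points below WT-CD instead of 12.7 above it, and R403Q-EMPA remained highest. The cardiomyocyte nuclei themselves were 10.8% ± 1.76, 13.3% ± 0.488 and 21.9% ± 4.14 of quality-filtered nuclei in WT-CD, then R403Q-CD, then R403Q-EMPA.

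The rule was met far less often outside cardiomyocytes. In nuclei of a fibroblast gate, 130 of 6676 (1.95%, median depth 3850 UMIs) held at least 2 UMIs of the selection genes, and in an endothelial gate 90 of 13612 (0.661%, median depth 3078). At a common depth of 1000 UMIs, the share was 10.2% in cardiomyocyte nuclei, 0.390% in the fibroblast gate and 0.111% in the endothelial gate.

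The 5 selection genes were not equally present. Of the stress-type nuclei, 32.2% carried UMIs of 1 selection gene only, 37.0% of 2, 19.2% of 3, 9.06% of 4 and 2.57% of all 5. Nuclei resting on a single gene made up 52.1% and 51.0% of stress-type nuclei in WT-CD libraries, 39.5% and 33.6% in those of R403Q-CD, and 21.1% and 28.2% in those of R403Q-EMPA. The median stress-type nucleus held 3 and 4 selection UMIs in WT-CD libraries, 5 and 6 in those of R403Q-CD, and 8 and 6 in those of R403Q-EMPA. The nuclei that met the rule therefore differed between groups in how far they exceeded it.

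Levels of the selection genes in stress-type nuclei are given as CPM of the summed UMIs, and describe the selection. Nppb was at 81.6 and 50.5 CPM in WT-CD libraries, 78.4 and 118 in those of R403Q-CD, and 164 and 182 in those of R403Q-EMPA. A UMI of Nppb was present in 38.9% and 36.5%, 46.1% and 61.4%, and 62.3% and 57.5% of stress-type nuclei. The 2 R403Q-EMPA libraries were the highest, while 1 R403Q-CD library lay within the WT-CD range. Slc24a2 averaged 159 ± 25.9, 276 ± 5.36 and 323 ± 3.83 CPM in WT-CD, then R403Q-CD, then R403Q-EMPA (SD, n = 2). Scube2 averaged 34.6 ± 0.458, 69.8 ± 18.7 and 144 ± 14.3 CPM. Kctd16 averaged 215 ± 39.8, 201 ± 4.04 and 366 ± 50.8 CPM and thus did not separate R403Q-CD from WT-CD.

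Over all cardiomyocyte nuclei, whether or not they met the rule, Nppb averaged 26.9 ± 2.20, 55.4 ± 24.0 and 116 ± 5.94 CPM in WT-CD, then R403Q-CD, then R403Q-EMPA. The other genes took the same order of group means, with Slc24a2 at 55.4 ± 4.33, 141 ± 31.0 and 206 ± 27.9 CPM. Scube2 was at 16.3 ± 3.11, 39.1 ± 15.6 and 93.8 ± 4.31 CPM and Kctd16 at 75.1 ± 5.56, 105 ± 20.7 and 232 ± 1.65 CPM. The rule reads the same UMIs of these genes, so the levels are no separate evidence for the shares of stress-type nuclei.

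To see whether the selection genes went together, each was left out of the rule in turn and its level read in nuclei chosen by the other 4. Nppb was higher in the chosen nuclei in all 6 libraries, by 1.82-fold to 2.80-fold, a mean log2 ratio of 1.26 ± 0.24 (SD, n = 6 libraries). The mean log2 ratio was 1.43 ± 0.74 for Scube2, 1.27 ± 0.38 for Slc24a2 and 0.94 ± 0.50 for Kctd16. Ryr3 was higher in all 6 libraries, by 3.01-fold to 63.8-fold, a mean log2 ratio of 3.46 ± 1.59. The lowest single ratio was that of Kctd16 in WT-CD 2, at 1.02-fold. Pooled over the 6 libraries after thinning to 3000 UMIs, Slc24a2 was detected in 33.4% of 1005 nuclei with an Nppb UMI and in 15.9% of 5613 without one. Kctd16 was detected in 29.3% and 17.0% of these nuclei and Scube2 in 21.1% and 8.18%. Within each library Slc24a2 and Scube2 were also detected more often with an Nppb UMI, Slc24a2 in 11.6 to 40.2% against 7.73 to 29.0% of nuclei, while Kctd16 was detected less often with one in both WT-CD libraries. Most nuclei with Nppb lacked each other gene at this depth.

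The UMIs of Ryr3 were concentrated in few nuclei. Its level in stress-type nuclei was 4.34 and 57.5 CPM in WT-CD libraries, 31.6 and 62.8 in those of R403Q-CD, and 320.0 and 85.2 in those of R403Q-EMPA. WT-CD and R403Q-CD overlapped, and both R403Q-EMPA libraries lay above them. Nuclei with at least 5 Ryr3 UMIs numbered 1, 2, 3, 15, 110 and 22 in WT-CD 1 and 2, R403Q-CD 1 and 2, and R403Q-EMPA 1 and 2. These 153 nuclei, 4.85% of the stress-type nuclei, held 95.1% of their Ryr3 UMIs. A small number of nuclei, most of them in 1 library, thus carried nearly all Ryr3 signal.

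Summed over libraries, the Ryr3-rich nuclei held more of several other stress genes, which were picked for display after their values were seen. Nppa was at 4423 CPM in them and 580 CPM in the remaining stress-type nuclei, and Ankrd1 at 1672 and 468 CPM. The growth factor Tgfb2 was at 435 and 80.3 CPM. The matricellular protein gene Ccn2 was at 484 and 100.6 CPM, and the hyaluronan receptor gene Cd44 at 235 and 52.5 CPM. Of these nuclei, 110 of 153 came from R403Q-EMPA 1, so the summed values are mostly those of 1 library. The libraries were not uniform. The 2 Ryr3-rich nuclei of WT-CD 2 held no UMI of Nppa, Ccn2 or Cd44, and Tgfb2 was at 37.3 CPM in them against 47.6 in the remaining stress-type nuclei. In R403Q-CD 1, with 3 such nuclei, Ccn2 was at 39.5 against 42.7 CPM.

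Levels of other stress genes were then read by the number of selection UMIs in a nucleus. Summed over libraries, Nppa went from 88.7 CPM in nuclei with 0 selection UMIs to 137, 174, 289, 576 and 1500 CPM in nuclei with 1, 2, 3 to 4, 5 to 9 and at least 10. Acta1 was at 14.9, 15.9, 17.9, 29.9, 40.7 and 105 CPM in the same classes, and Ankrd1 at 207, 267, 255, 329, 437 and 846 CPM. These sums mix libraries whose levels and class sizes differ. Within each of the 6 libraries, Nppa, Acta1 and Ankrd1 were higher in nuclei with at least 10 selection UMIs than in nuclei with 0.

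Just outside and just inside the rule, with 1 and 2 selection UMIs, Nppa was at 27.4 and 75.7 CPM in WT-CD 1 and at 8.43 and 25.5 in WT-CD 2. It was at 36.4 and 78.1 CPM in R403Q-CD 1 and at 62.6 and 94.2 in R403Q-CD 2. In R403Q-EMPA 1 and 2 the values were 619.8 and 684, and 78.1 and 64.9 CPM. The step at the threshold was thus upward in 5 of 6 libraries and larger in relative terms in the WT-CD and R403Q-CD libraries than in those of R403Q-EMPA. Ankrd1 was lower at 2 than at 1 selection UMI in R403Q-EMPA 1, R403Q-CD 1 and WT-CD 1.

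The vesicle release scaffold gene Rims2 went from 3.35 to 69.4 CPM over the same classes. Pfkfb1, which encodes an enzyme that makes and degrades the glycolytic activator fructose 2,6-bisphosphate, went the other way, from 62.7 CPM in nuclei with 0 selection UMIs to 18.9 CPM in those with at least 10. Atp2a2, the calcium pump of the sarcoplasmic reticulum, went from 4109 to 3059 CPM. Myh7 showed little gradient in the sums, with 404 CPM at 0 and 440 CPM at 10 or more UMIs. By library it went from 473 to 626 CPM in WT-CD 1 and from 371 to 372 in WT-CD 2. In R403Q-CD 1 and 2 it went from 418 to 483 and from 382 to 451. In R403Q-EMPA 1 and 2 it went from 443 to 431 and from 312 to 422. The summed values pool nuclei of all libraries, and a nucleus's depth was also higher along the classes, from a median of 7076 to 11231 UMIs.

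**Figure D2:**
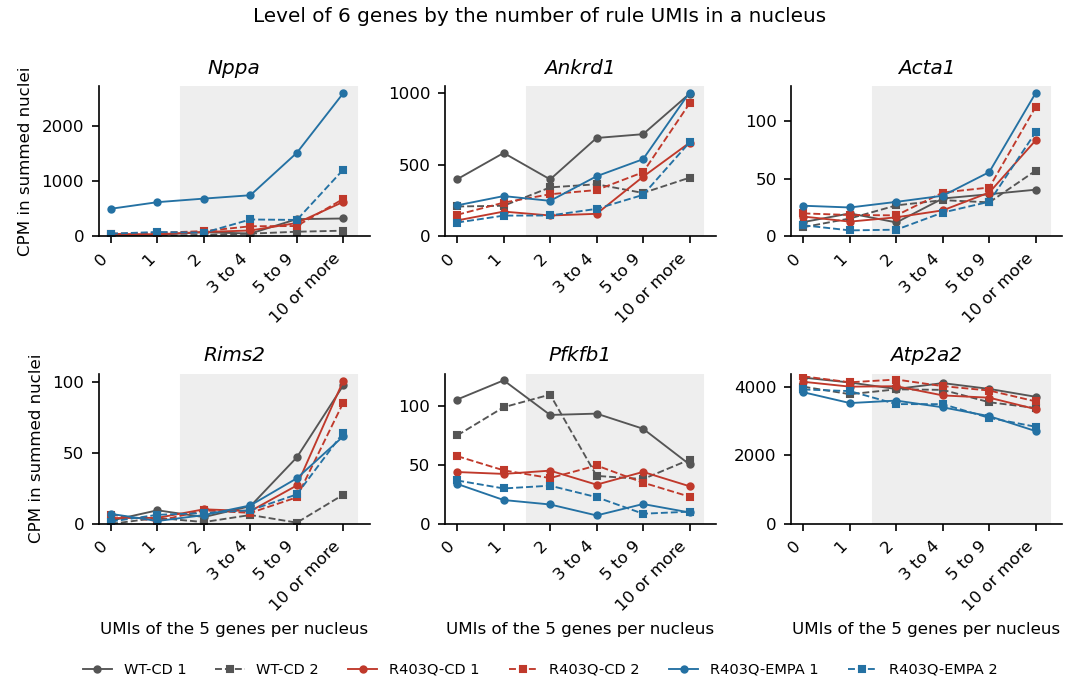
Level of 6 genes in summed cardiomyocyte nuclei (y axis, CPM) by the number of UMIs of the 5 selection genes in the nucleus (x axis), 1 line per library, with the classes inside the rule shaded. In every library Nppa, Ankrd1, Acta1 and Rims2 are higher and Pfkfb1 lower in the last class than at 0 UMIs, and R403Q-EMPA 1 is highest for Nppa in every class, at 500 CPM already at 0 UMIs.

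Within a class, Nppa still differed between libraries. In nuclei with 5 to 9 selection UMIs it was at 311 and 83.1 CPM in WT-CD libraries, 242 and 187 in those of R403Q-CD, and 1516 and 297 in those of R403Q-EMPA. In nuclei with at least 10 it was at 323 and 102, 625 and 680, and 2600 and 1211 CPM. The groups overlapped in the first of these classes and did not overlap in the second.

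Compared with other cardiomyocyte nuclei of the same library, stress-type nuclei differed in few genes by a large factor. Of 13499 genes besides the selection genes, 73 (0.541%) were at least 2-fold higher on average and higher in 6 of 6 libraries, and 22 (0.163%) at least 2-fold lower and lower in 6 of 6. Regardless of size, 715 genes (5.297%) were higher and 884 (6.55%) lower in 6 of 6 libraries. These counts describe nuclei that were chosen by expression and differ in depth, and are not a test.

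Among genes of at least 20 CPM in stress-type nuclei that were higher in 6 of 6 libraries, Rims2 was furthest apart, with a mean log2 ratio of 2.87 ± 0.33 (SD, n = 6). Nppa followed with 2.69 ± 0.53. It was at 169, 66.1, 273, 367, 1853 and 575 CPM in stress-type nuclei of the 6 libraries, in the order WT-CD, R403Q-CD, R403Q-EMPA, and at 20.5, 11.8, 41.4, 50.9, 541 and 57.0 CPM in other cardiomyocyte nuclei. In each library the stress-type value was the higher, with the smallest ratio in R403Q-EMPA 1. Acta1 had a mean log2 ratio of 1.66 ± 0.47, with 28.0, 35.5, 41.4, 65.3, 84.0 and 44.8 CPM in stress-type and 13.96, 9.91, 15.9, 19.4, 26.0 and 8.23 CPM in other cardiomyocyte nuclei. With the barcodes of high mitochondrial content included, the Acta1 ratio was -0.04.

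Ankrd1 had a mean log2 ratio of 1.31 ± 0.53. The other leading genes included Cd44 (1.46 ± 0.35), the neuronal splicing factor gene Nova1 (1.42 ± 0.56), the Golgi kinase gene Gask1b (1.24 ± 0.76) and Cdh4 (1.17 ± 0.19), which encodes R-cadherin. Otud1, a deubiquitinase gene, Tmem108 and Masp1, a complement pathway protease gene, followed with 1.13 ± 0.47, 1.10 ± 0.26 and 1.09 ± 0.41. The long noncoding genes Gm56984, Gm12381, Gm41505 and Hectd2os completed the 15 highest under this minimum, at 1.07 or above.

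Among genes of at least 20 CPM in other cardiomyocyte nuclei that were lower in 6 of 6 libraries, Pid1, an adaptor protein gene, had a mean log2 ratio of -0.91 ± 0.81 and Pfkfb1 of -0.69 ± 0.43. The transcription factor gene Trps1 was at -0.64 ± 0.18. Fli1 (-0.80), Ptprb (-0.76), Cyyr1 (-0.76) and Adgrf5 (-0.72) are genes of endothelial cells. Weighting the other nuclei to the depth of the stress-type nuclei moved these 4 to -0.30, -0.33, -0.14 and -0.24, while Pfkfb1 stayed at -0.69. Over 12 endothelial markers, 0 were higher and 6 lower in 6 of 6 libraries, among them Pecam1 and Cdh5, which the cardiomyocyte gate limits.

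**Figure D3:**
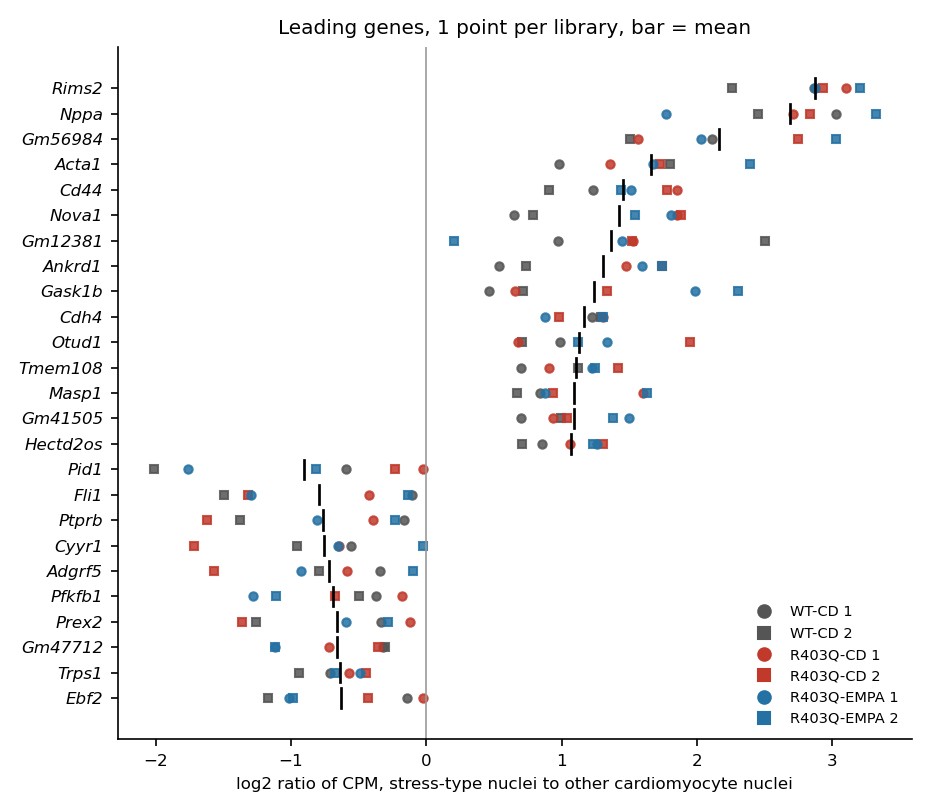
Log2 ratio of CPM in stress-type to other cardiomyocyte nuclei of the same library (x axis) for the 15 genes of highest and 10 of lowest mean ratio among those of at least 20 CPM with 1 direction in 6 of 6 libraries, 1 point per library and a bar at the mean. Rims2 (mean 2.87) and Nppa (2.69) lead, and points of the lower genes spread more widely, for example Pid1 with an SD of 0.81.

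By function, the shift was clearest in the hypertrophy and stress list, in which 15 of 25 genes with values were higher and 0 lower in 6 of 6 libraries, with a median log2 ratio of 0.28 against -0.02 over all genes. Over all genes, 5.297% were higher and 6.55% lower in 6 of 6 libraries, and the counts of the lists that follow stand beside these shares. Nppa, Acta1, Ankrd1, Gdf15 (mean log2 ratio 1.59), a stress-induced hormone, and the transcription factor gene Atf3 (1.01) were at least 2-fold higher on average. Ccn2 stood at 0.96 and the TWEAK receptor gene Tnfrsf12a at 0.80. Fatty acid use showed 1 gene higher and 7 lower of 31, with a median of -0.13, among the lower Acadm, Hadha and Acaa2 of mitochondrial β-oxidation. Branched-chain amino acid (BCAA) breakdown showed 0 higher and 3 lower of 20, with a median of -0.15. Of 21 potassium channel genes, 4 were lower (Kcnj3, Kcnq1, Kcnh2 and Abcc8) and 0 higher.

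Calcium handling was mixed, with 6 genes higher and 5 lower of 28. Casq1, the calsequestrin of skeletal muscle, had a mean log2 ratio of 1.49, and Atp2a2 of -0.19. In the fetal or slow sarcomere list, 3 of 11 genes were higher (Acta1, Acta2 and Tpm2), and in the adult sarcomere list 3 of 20 were higher and 1 lower. The 19 conduction genes with values held 0 that kept a direction in all libraries. Corin, the protease that activates natriuretic peptide precursors, was lower at -0.15, and the neuregulin receptor gene Erbb4 at -0.29.

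Whether the stress-type nuclei of the 3 groups differed from each other was tested on UMIs summed per library, with edgeR's quasi-likelihood test and Benjamini-Hochberg adjustment over all genes. Adjusted p below 0.05 made a call, the 5 selection genes were left out of the counts, and levels in these comparisons are CPM after TMM scaling of the sums. R403Q-CD differed from WT-CD in 21 of 13006 genes (0.161%), of which 18 were higher (0.138%) and 3 lower (0.0231%). R403Q-EMPA differed from R403Q-CD in 118 genes (0.907%), 45 higher (0.346%) and 73 lower (0.561%). R403Q-EMPA differed from WT-CD in 652 genes (5.01%), 264 higher (2.03%) and 388 lower (2.98%). The comparisons share groups and are not independent. The median log2 fold change over all genes lay between -0.00 and 0.01.

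Single libraries carried much of these counts. Leaving out R403Q-CD 2 reduced the R403Q-CD against WT-CD count from 21 to 0, with 0.05 as the threshold on adjusted p, and 952 genes had an unadjusted p below 0.05 with all libraries. Without R403Q-EMPA 1, the R403Q-EMPA counts fell from 118 to 8 against R403Q-CD and from 652 to 174 against WT-CD. Without R403Q-CD 1, 19 genes differed between R403Q-EMPA and R403Q-CD, and without R403Q-CD 2, 39. Leaving out WT-CD 1 or 2 raised that count to 342 or 357. In these fits a lone library of a group was taken to vary like the other groups.

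Other measures moved with the groups. The median mitochondrial share of stress-type nuclei was 1.02 and 0.755% in WT-CD libraries, 0.727 and 0.698% in those of R403Q-CD, and 1.07 and 1.18% in those of R403Q-EMPA. The median depth of these nuclei was 8237 and 13807, 11368 and 14766, and 10325 and 7602 UMIs. In both measures R403Q-CD and R403Q-EMPA did not overlap. The median number of selection UMIs was lowest in WT-CD and highest in R403Q-EMPA 1, as given above, and R403Q-EMPA 2 equalled R403Q-CD 2. Endothelial markers summed to 90.0 to 147 CPM in stress-type nuclei of WT-CD, 103 to 134 in R403Q-CD and 172 to 179 in R403Q-EMPA. Pericyte and smooth muscle markers summed to 543 to 585, 477 to 547 and 354 to 376 CPM, fibroblast markers to 174 to 476, 178 to 315 and 226 to 240 CPM, and myeloid markers to 22.8 to 77.6, 69.2 to 94.6 and 45.5 to 79.9 CPM. The share of stress-type nuclei with at least 2 conduction gene UMIs was 16.7 and 15.3% in WT-CD libraries, 32.8 and 39.3% in those of R403Q-CD, and 42.6 and 26.0% in those of R403Q-EMPA. With these nuclei left out, 12 genes differed between R403Q-CD and WT-CD and 62 between R403Q-EMPA and R403Q-CD. The part of the marker sums, the depth and the mitochondrial share in the differences between groups was not tested.

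With the mutation, on control diet, stress-type nuclei held more Atf3 and Nr4a3, genes of immediate early transcription factors, and less Mylk4, which encodes a myosin light chain kinase. Atf3 was at 6.73 and 7.92 CPM in WT-CD libraries, 27.0 and 40.1 in those of R403Q-CD, and 20.3 and 14.9 in those of R403Q-EMPA. All R403Q libraries lay above the WT-CD libraries, and R403Q-CD was the highest. Atf3 rose by a log2 fold change of 2.19 ± 0.28 (SE, edgeR adjusted p = 0.0158) in R403Q-CD against WT-CD. Nr4a3 was at 2.24 and 4.11, 21.9 and 28.3, and 10.4 and 3.55 CPM and rose by 2.94 ± 0.48 (edgeR adjusted p = 0.0357).

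Mylk4 was at 531 and 580 CPM in WT-CD libraries, 175 and 209 in those of R403Q-CD, and 55.4 and 71.2 in those of R403Q-EMPA. The 3 groups were separate, and the gene fell by 1.53 ± 0.19 on the log2 scale in R403Q-CD (edgeR adjusted p = 0.0158). When the rule was applied after thinning, the calls of Atf3 and Nr4a3 were lost. That of Nr4a3 was also lost with conduction-type nuclei left out, while Mylk4 kept its call under each setting with all 6 libraries. Without R403Q-CD 2, none of these 3 calls held, and each was also lost without 1 or 2 further libraries: Atf3 without WT-CD 1, Nr4a3 without WT-CD 1 and without WT-CD 2, and Mylk4 without R403Q-CD 1. Over the tested alternatives, the highest edgeR or DESeq2 adjusted p was 0.134 for Atf3, 0.142 for Nr4a3 and 0.130 for Mylk4.

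Further genes that rose were Cpxm2 (log2 fold change 1.92), a carboxypeptidase-like protein gene, Cdh4 (1.91), Baiap2 (1.83), an actin regulator gene, Pak5 (1.66), a kinase gene, and the noncoding genes 5830418P13Rik (3.53) and 5033421B08Rik (2.40). Colq, the collagen-like anchor of acetylcholinesterase, fell by 2.23 and Spred2, an inhibitor of Ras signalling, by 1.45. Each of them lost its call without R403Q-CD 2 and without 1 to 2 further libraries, at adjusted p up to 0.316.

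The lists showed few of these calls. In the hypertrophy and stress list, 1 of 25 genes tested rose (Atf3) and 0 fell, beside 0.138% of all genes higher and 0.0231% lower, with a median log2 fold change of 0.28. In the immediate early and heat shock list, 2 of 26 rose (Atf3 and Nr4a3), with a median of 0.30. No gene was called in the lists of BCAA breakdown, fatty acid use, glucose use, natriuretic peptide system, calcium, sodium and potassium handling, adult and fetal sarcomere, or growth and mTORC1. Nppa was at 161 and 72.2 CPM in WT-CD and 276 and 371 in R403Q-CD. These groups did not overlap, but the log2 fold change of 1.48 ± 0.45 was not called (edgeR adjusted p = 0.394).

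With EMPA in R403Q hearts, the chaperone genes Hsph1, Hsp90aa1, Dnaja1 and Hspa1b rose in stress-type nuclei relative to control diet, and the metabolic enzyme genes Pfkfb1 and Bckdha fell. Hspa8, Hspb1, Dnajb1 and Hspa1a were not called. Hsph1, a nucleotide exchange factor of HSP70, was at 13.7 and 12.6 CPM in R403Q-CD, 65.3 and 50.3 in R403Q-EMPA, and 7.48 and 5.28 in WT-CD. The R403Q-EMPA libraries lay far above all others. Hsph1 rose by a log2 fold change of 2.15 ± 0.20 (edgeR adjusted p = 9.73e-04) and kept its call without each of the 6 libraries. The chaperone gene Hsp90aa1 was at 41.1 and 30.4 CPM in R403Q-CD against 77.0 and 90.7 in R403Q-EMPA, and rose by 1.24 ± 0.18 (edgeR adjusted p = 0.00956). That call was lost without R403Q-CD 2 and without R403Q-EMPA 1, with a highest adjusted p of 0.0996.

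In the immediate early and heat shock list, 4 of 26 genes rose (Hsph1, Hsp90aa1, Dnaja1 and Hspa1b) and 1 fell (Nr4a3, by 1.79 ± 0.36), with a median of 0.47, beside 0.346% of all genes higher and 0.561% lower. Hspa1b, an inducible HSP70 gene, had 0 UMIs in R403Q-CD and 63 in R403Q-EMPA, at least 14.2-fold higher against 3 UMIs in the R403Q-CD group. Its near-identical copy Hspa1a shares reads with it, so the pair is uncertain. Of the 63 UMIs, 51 were in R403Q-EMPA 1, without which Hspa1b was too low to be tested. The calls of Dnaja1, Hspa1b and Nr4a3 were each lost without R403Q-CD 1 and without R403Q-CD 2, that of Dnaja1 also without R403Q-EMPA 1 and that of Nr4a3 also without R403Q-EMPA 2, at adjusted p up to 0.175, 0.187 and 0.180. Cryab, the small heat shock protein αB-crystallin, was the 1 gene of the hypertrophy and stress list that rose. It was at 110 and 100.996 CPM in R403Q-CD against 192 and 184 in R403Q-EMPA, and its call (log2 fold change 0.84 ± 0.18, edgeR adjusted p = 0.0492) was lost without any 1 library of either group, with adjusted p up to 0.357. Nppa was at 1782 and 577 CPM in R403Q-EMPA, above both R403Q-CD libraries, but was not called (1.87 ± 0.45, edgeR adjusted p = 0.0727).

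Pfkfb1 was at 38.9 and 34.1 CPM in R403Q-CD against 11.3 and 16.0 in R403Q-EMPA, and fell by 1.43 ± 0.21 on the log2 scale (edgeR adjusted p = 0.00956). Bckdha, a subunit of the enzyme that commits BCAA to breakdown, was at 54.1 and 32.9 CPM in R403Q-CD against 14.9 and 21.0 in R403Q-EMPA, and fell by 1.28 ± 0.25 (edgeR adjusted p = 0.0342). Both calls were lost without R403Q-CD 1 and without R403Q-EMPA 1, with highest adjusted p of 0.125 and 0.353. They were the 1 called gene of 29 for glucose use and the 1 of 20 for BCAA breakdown, beside 0.561% of all genes lower, and the list medians were 0.16 and -0.27. The Bckdha call was also lost after thinning, without the mitochondrial filter, and with conduction-type nuclei left out. That of Pfkfb1 was kept in each of these settings. In fatty acid use, 0 of 31 genes were called. Cpt1a, which admits fatty acids to mitochondria, was at 78.6 and 80.0 CPM in R403Q-CD against 70.03 and 65.5 in R403Q-EMPA.

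P3h2, a collagen prolyl hydroxylase gene, was at 5.96 and 9.92 CPM in R403Q-CD against 69.5 and 37.3 in R403Q-EMPA. It rose by 2.72 ± 0.31 (edgeR adjusted p = 0.00270) and kept its call without each library. Tpm2, the β-tropomyosin gene, was at 3.76 and 2.22 CPM in R403Q-CD against 21.9 and 14.5 in R403Q-EMPA and rose by 2.66 ± 0.34 (edgeR adjusted p = 0.00432), which was lost without R403Q-EMPA 1 (adjusted p up to 0.0697). Myl7, the atrial myosin light chain gene, had 1 UMI in R403Q-CD and 99 in R403Q-EMPA, a ratio of 67.1 (exact 95% counting interval 11.8 to 2678), and its call was lost without R403Q-CD 2 and without R403Q-EMPA 1 (adjusted p up to 0.108). Atrial markers summed to 1784 to 1851 CPM in stress-type nuclei of R403Q-CD and to 2018 to 3456 CPM in R403Q-EMPA, Nppa included, and Bmp10 had no UMI. The atrial gene Sln had no UMI in stress-type nuclei of any WT-CD or R403Q-CD library and was detected in both R403Q-EMPA libraries. Of 11 atrial genes tested, 9 were higher and 2 lower, with a median log2 fold change of 1.24 against 0.01 over all genes. Only Myl7 of the 11 was called, beside 0.346% of all genes called higher. Npr3, the natriuretic peptide clearance receptor gene, rose by 1.49 ± 0.25 (edgeR adjusted p = 0.0204), which was lost without R403Q-CD 1, R403Q-CD 2 or R403Q-EMPA 1 (adjusted p up to 0.214). Npr3 is also 1 of 6 endocardial markers tested, and its call was lost when nuclei with any UMI of the other-type gate genes, or predicted doublets, were left out.

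Among genes that fell, Map2k6, a kinase upstream of p38, was at 26.7 and 26.7 CPM in R403Q-CD against 6.82 and 9.17 in R403Q-EMPA, a log2 fold change of -1.76 ± 0.21 (edgeR adjusted p = 0.00344). It missed the threshold only without R403Q-EMPA 1, at 0.0509. The sorting receptor gene Sorcs2 fell by 1.72, the mTOR inhibitor gene Deptor by 1.54 and the smooth muscle actin gene Acta2 by 1.72. Acta2 moved with the pericyte and smooth muscle markers, of which it is one. Iqgap2, Kif28, F830016B08Rik and Gm32283 also fell, by 1.78, 1.70, 1.94 and 3.21, and each lost its call without at least 3 single libraries, R403Q-EMPA 1 among them, at adjusted p up to 0.429. Under settings with all 6 libraries, Gm32283 kept its call in 2 of 10, Iqgap2 and Kif28 in 6 of 11 and F830016B08Rik in 9 of 11. Kirrel3, an adhesion protein gene, rose by 2.21 and Unc80, a subunit of a sodium leak channel complex, by 2.43. Pcdh11x, a protocadherin gene, had 2 UMIs in R403Q-CD and 130 in R403Q-EMPA, a ratio of 44.1 (12.0 to 368). The calls of Sorcs2, Deptor, Kirrel3, Unc80 and Pcdh11x were lost without R403Q-CD 1 and without R403Q-EMPA 1, that of Unc80 also without R403Q-CD 2 and without R403Q-EMPA 2, and that of Acta2 without R403Q-CD 2 and without R403Q-EMPA 2, at adjusted p up to 0.292.

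**Figure D4:**
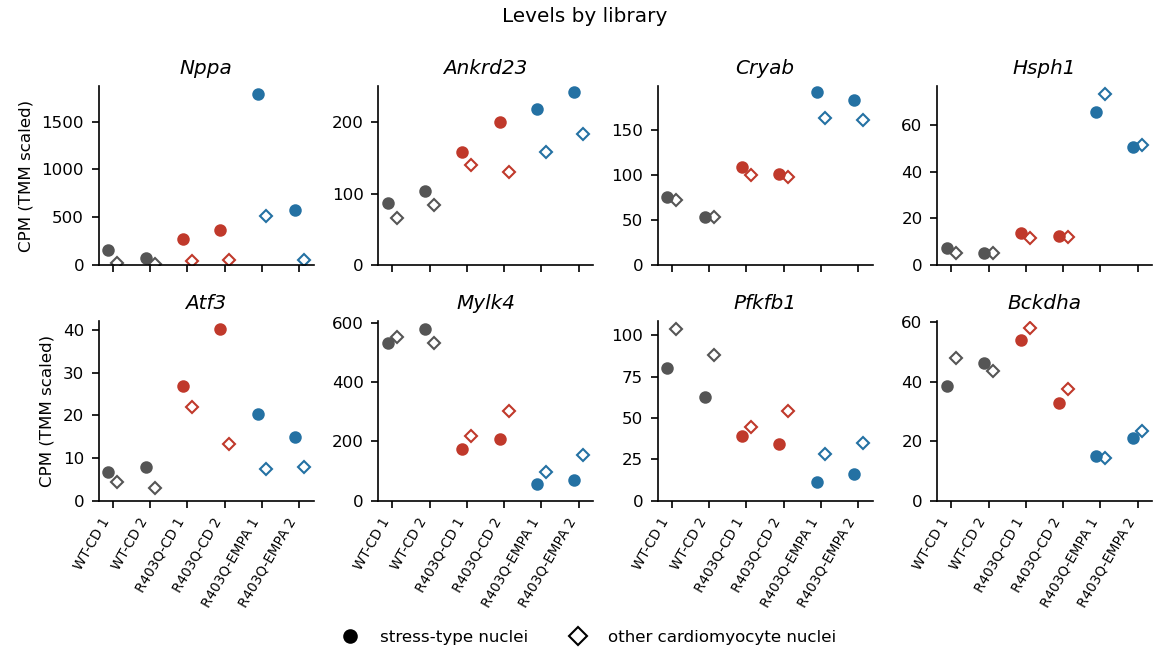
Level (y axis, TMM-scaled CPM) of 8 genes in stress-type nuclei (filled) and other cardiomyocyte nuclei (open) of each of the 6 libraries. Hsph1 is at 50.3 and 65.3 CPM in stress-type nuclei of R403Q-EMPA against 5.28 to 13.7 in those of the 4 other libraries, and other cardiomyocyte nuclei of R403Q-EMPA are as high, at 73.1 and 51.5. In both kinds of nuclei Mylk4 steps down from WT-CD to R403Q-EMPA, and Atf3 is highest in R403Q-CD.

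R403Q-EMPA against WT-CD, which differ in both genotype and diet, gave the most calls of the 3 comparisons. In the hypertrophy and stress list, 11 of 25 genes rose and 0 fell, beside 2.03% of all genes higher and 2.98% lower, and the list median was 0.76 against 0.00 over all genes. The genes that rose were Nppa, Ankrd23, Flnc, Des, Rcan1, Gdf15, Atf3, Clu, Hspb1, Cryab and Tnfrsf12a. Nppa rose by 3.35 ± 0.48 (edgeR adjusted p = 0.00270). Ankrd23, a titin-binding relative of Ankrd1, was at 86.3 and 104 CPM in WT-CD libraries, 158 and 200 in those of R403Q-CD, and 218 and 241 in those of R403Q-EMPA, and rose by 1.27 ± 0.18 (edgeR adjusted p = 0.00274). Cryab, at 75.5 and 53.4 CPM in WT-CD, rose by 1.55 ± 0.19 (edgeR adjusted p = 7.73e-04). Nppa, Ankrd23, Cryab, Clu and Tnfrsf12a kept their calls without each library, while Flnc, Des, Rcan1, Gdf15, Atf3 and Hspb1 lost theirs without R403Q-EMPA 1, and all of these but Flnc also without at least 1 further library, with adjusted p up to 0.400 over the alternatives.

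The classical markers Ankrd1, Acta1 and Myh7 were not called in any of the 3 comparisons. Ankrd1 was at 602 and 381 CPM in WT-CD libraries, 359 and 595 in those of R403Q-CD, and 693 and 372 in those of R403Q-EMPA, and the groups overlapped. Acta1 was at 26.5 and 38.7, 41.8 and 66.0, and 80.8 and 44.98 CPM, with a log2 fold change of 0.94 ± 0.30 in R403Q-EMPA against WT-CD (edgeR adjusted p = 0.0982). Myh7 was at 503 and 395, 405 and 402.9, and 401 and 352 CPM. The same held for Atp2a2, with a log2 fold change of -0.36 ± 0.23 in R403Q-EMPA against WT-CD (edgeR adjusted p = 0.424), and Corin, with -0.22 ± 0.24 (edgeR adjusted p = 0.685).

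In the immediate early and heat shock list, 10 of 26 genes rose in R403Q-EMPA against WT-CD and 0 fell, beside 2.03% of all genes higher and 2.98% lower, with a median of 0.80. They were Hsph1 (3.203 ± 0.25, edgeR adjusted p = 8.85e-05), Hsp90aa1 (1.81 ± 0.20), Dnaja1 (1.77 ± 0.21), Hspa8, Hspb1, Dnajb1, Hspa1a, Hspa1b, Jun and Atf3. Hsph1, Hsp90aa1, Dnaja1 and Hspa8 kept their calls without each library. Hspb1, Dnajb1, Hspa1a, Jun and Atf3 lost theirs without R403Q-EMPA 1 and without WT-CD 2, and Hspa1b without WT-CD 1 and without WT-CD 2, at adjusted p up to 0.400. Hspa1a had 2 UMIs in WT-CD and 99 in R403Q-EMPA, a ratio of 18.4 (4.97 to 154).

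In BCAA breakdown, 5 of 20 genes fell (Bckdha, Bckdhb, Dbt, Ppm1k and Mccc1) and 0 rose, beside 2.98% of all genes lower and 2.03% higher, with a median of -0.32. Bckdhb, the partner subunit of Bckdha, was at 103 and 109 CPM in WT-CD libraries, 112 and 82.8 in those of R403Q-CD, and 56.3 and 57.6 in those of R403Q-EMPA, and fell by 0.90 ± 0.18 (edgeR adjusted p = 0.0133). All 5 calls were lost without R403Q-EMPA 1, and all but that of Mccc1 also without at least 1 further library, with adjusted p up to 0.297. In fatty acid use, Cpt1a (by 0.94 ± 0.16, edgeR adjusted p = 0.00599) and Dgat2, an enzyme of triglyceride synthesis (by 0.91 ± 0.19), fell and 0 of 31 rose, with a median of -0.13, so that 2 of 31 genes were called lower beside 2.98% of all genes. Both calls were lost without R403Q-EMPA 1, and that of Dgat2 also without WT-CD 2, at adjusted p up to 0.0553 and 0.202. In glucose use, 3 of 29 genes rose and 1 fell, beside the same shares of all genes. Pfkp, Aldoa and Eno1 of glycolysis rose by 1.23, 0.85 and 0.80, and Pfkfb1 fell by 2.40 ± 0.21 (edgeR adjusted p = 1.59e-04), with a list median of 0.23. The Pfkfb1 call held without each library, and the 3 others were lost without R403Q-EMPA 1 and without at least 1 further library, at adjusted p up to 0.166, 0.186 and 0.292.

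Of the ion handling lists, 2 of 21 potassium channel genes and 1 of 27 calcium handling genes were called, beside 5.01% of all genes. Kcnh2, of the rapid repolarising current, fell by 0.75 ± 0.17 and Kcnc1 rose by 2.45 ± 0.62. The kinase gene Camk2a fell by 0.78 ± 0.17, and 0 of 15 sodium handling genes were called. Kcnh2, Kcnc1 and Camk2a lost their calls without R403Q-EMPA 1 and without at least 2 further libraries, at adjusted p up to 0.308, 0.238 and 0.202.

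Mylk4 had the smallest adjusted p of the genes named, with a fall of 3.14 ± 0.20 on the log2 scale (edgeR adjusted p = 2.09e-05) that held without each library. Tpm2 rose by 2.99, the noncoding gene 5830418P13Rik by 4.80, and Mme, the endopeptidase neprilysin that degrades natriuretic peptides, fell by 1.43 ± 0.20. Those calls also held without each library. In the atrial list, 3 of 11 genes tested rose (Myl7, Nppa and Clu) and 0 fell, beside 2.03% of all genes higher and 2.98% lower. Myl7 had 0 UMIs in WT-CD and 99 in R403Q-EMPA, at least 12.3-fold higher against 3 UMIs in the WT-CD group. The low-count genes Gm42670, Adgrb3, Gm48626 and Hspa1b had 0 UMIs in WT-CD and were at least 6.58-fold, 5.46-fold, 4.595-fold and 7.82-fold higher against the same floor. G630018N14Rik, Cpne4 and Grhl2 had 2 to 3 UMIs in R403Q-EMPA and were lower there by ratios of 17.4 (3.95 to 159), 15.2 (4.399 to 81.0) and 11.6 (3.196 to 63.6). Gm2164 had 2 UMIs in WT-CD and 94 in R403Q-EMPA, a ratio of 17.5 (4.71 to 147). Gm32283, Gm32492, 0610040J01Rik and Gm36670 fell by 3.63, 3.27, 2.96 and 2.86. Without R403Q-EMPA 1, the calls of Gm42670, Adgrb3, Gm48626, Cpne4, Grhl2 and the 4 genes of the previous sentence were lost, and each was also lost without at least 1 further library. Those of Hspa1b and Gm2164 were lost without WT-CD 1 and without WT-CD 2, and these genes were too low to be tested without R403Q-EMPA 1. G630018N14Rik could be tested only without R403Q-CD 1, where its call was lost. The adjusted p of these genes reached up to 0.328, whereas Myl7 kept its call without each library.

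The last question was whether the change between groups was different in stress-type nuclei from that in other cardiomyocyte nuclei. It was tested as the interaction in a model of 12 sums, with stress-type and other nuclei of a library as a block. Of 13499 genes, 4 (0.0296%) differed in this way for R403Q-CD against WT-CD, 1 upward (0.00741%) and 3 downward (0.0222%). There were 11 (0.0815%) for R403Q-EMPA against R403Q-CD, 8 upward (0.0593%) and 3 downward (0.0222%), and 56 (0.415%) for R403Q-EMPA against WT-CD, 29 upward (0.215%) and 27 downward (0.2%). A gene that was not called here is not shown to change alike in both kinds of nuclei. Stress-type nuclei exceeded the rule by different amounts in the groups, as given above, and the part of this in the interaction was not tested. Hsph1 rose by a log2 fold change of 2.15 in stress-type and 2.39 in other cardiomyocyte nuclei of R403Q-EMPA against R403Q-CD, a difference of -0.24 that was not called (edgeR adjusted p = 0.898). For Atf3 in R403Q-CD against WT-CD the values were 2.19 and 2.22.

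Ankrd1 was the gene whose contrast between the 2 kinds of nuclei grew with the mutation. Its log2 ratio of stress-type to other cardiomyocyte nuclei was 0.54 and 0.74 in WT-CD libraries, 1.48 and 1.74 in those of R403Q-CD, and 1.60 and 1.74 in those of R403Q-EMPA. The WT-CD libraries lay below all 4 others. The difference was 0.98 ± 0.10 for R403Q-CD against WT-CD (edgeR adjusted p = 1.04e-04), and it held without each library. It also held with DESeq2 size factors, the DESeq2 Wald test, no count filter, and Ryr3-rich nuclei left out. Other alternatives to the rule or the filters were not run for the interaction. Ankrd1 in stress-type nuclei itself showed overlapping groups, as given above, and other cardiomyocyte nuclei held 438 and 209 CPM in WT-CD and 127, 175, 238 and 110 CPM in the R403Q libraries, before TMM scaling. The haemoglobin gene Hbb-bs and 2010001K21Rik had the opposite sign, with differences of -0.67 and -0.77. The remaining gene of the 4, Gm40658, was named after its values were seen, and had 47 UMIs in stress-type nuclei of WT-CD 2, 92 in other nuclei of R403Q-CD 2 and at most 2 in every other sum.

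With EMPA, P3h2 had log2 ratios of 1.32 and -0.17 in R403Q-CD against 2.85 and 2.87 in R403Q-EMPA, a difference of 2.66 ± 0.36 (edgeR adjusted p = 0.00233). Arhgap31, a GTPase-activating protein gene, had ratios of -0.93 and -1.38 in R403Q-CD against 0.72 and 0.56 in R403Q-EMPA, a difference of 1.90 ± 0.22 (edgeR adjusted p = 4.12e-04). Tgfb2 had ratios of 0.40 and 0.85, and 1.95 and 1.48, a difference of 1.11 ± 0.18 (edgeR adjusted p = 0.0127). For each, the R403Q-EMPA libraries lay above both R403Q-CD libraries. With DESeq2, the calls of P3h2 and Tgfb2 were lost and that of Arhgap31 was kept. Ripor2 turned the other way, with ratios of 0.15 and 0.04 in R403Q-CD against -0.98 and -0.81 in R403Q-EMPA, a difference of -0.97 ± 0.10 (edgeR adjusted p = 1.68e-04). In the same test, 12 of 12 endothelial markers had a positive and 11 of 11 myeloid markers a negative difference, with medians of 0.51 and -0.72 against 0.00 over all genes and 0 calls. The part of these cells' RNA in the differences above was not tested. Without R403Q-EMPA 1, 0 of the 11 calls against R403Q-CD were made, and that of P3h2 was also lost without R403Q-CD 2, while 882 genes had an unadjusted p below 0.05 with all libraries.

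Against WT-CD, Ripor2 (-1.20 ± 0.10, edgeR adjusted p = 4.73e-06), Mylk4 (-0.99 ± 0.11, edgeR adjusted p = 6.11e-05), Ldlrad3 (2.37 ± 0.26, edgeR adjusted p = 6.11e-05) and Tgfb2 (1.51 ± 0.18, edgeR adjusted p = 1.36e-04) held without each library, and Ldlrad3 and Tgfb2 were not called with DESeq2. Mylk4 fell in both kinds of nuclei, by 3.14 in stress-type and 2.11 in other cardiomyocyte nuclei. The count of 56 was 17 without R403Q-EMPA 1, 25 without R403Q-EMPA 2 and 15 without WT-CD 2. With the Ryr3-rich nuclei left out it was 37, an alternative chosen after seeing the data.

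**Figure D5:**
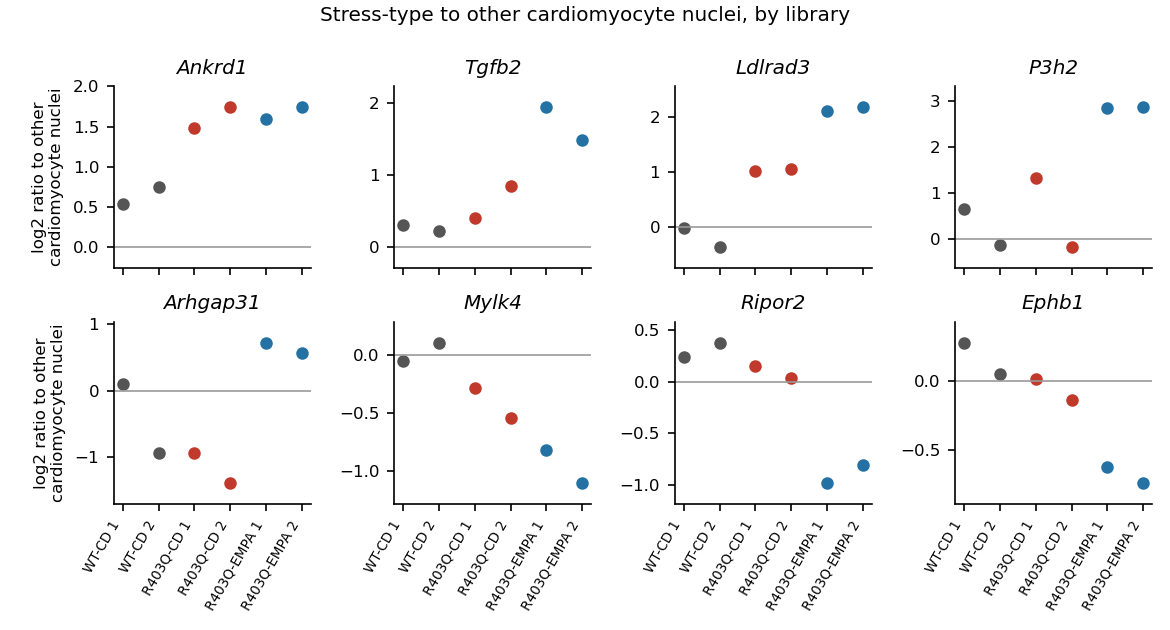
Log2 ratio of stress-type to other cardiomyocyte nuclei (y axis) in each of the 6 libraries for 8 genes whose change between groups differed by the interaction test. Ankrd1 is at 0.54 and 0.74 in WT-CD and 1.48 to 1.74 in the R403Q libraries, and Ripor2 and Ephb1 cross from positive ratios in WT-CD to negative ones in R403Q-EMPA.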

How the data were processed

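The authors isolated nuclei from frozen left ventricle, prepared 10x Genomics droplet libraries and deposited a matrix of UMI counts per gene and barcode for each of 6 libraries, without normalisation. The submitters' processing notes name Cell Ranger 8.0.1 and GRCm39; the annotation and the treatment of intronic reads were not given in the sources used here. Nuclei were kept with at least 500 UMIs, 300 genes and at most 5% mitochondrial UMIs. Cardiomyocyte nuclei had at least 1.5% and 20 UMIs of Ttn, Ryr2 and Myh6 and at most 3 UMIs of Pdgfra, Pecam1, Cdh5 and Rgs5, so these genes are not findings. Predicted doublets (scanpy 1.11.5) stayed in and were left out as an alternative. UMIs were summed per library and tested with edgeR 4.0.16 in R 4.3.3 (TMM, filterByExpr, quasi-likelihood F test, Benjamini-Hochberg over all genes, all 6 libraries in the fit), which was tested on simulated data first. In the simulated data, 6.96 to 10.3% of calls were false for the group comparisons and 6.94 to 13.5% for the interactions. Of 2-fold changes, 45 to 54% were recovered in the group comparisons and 5 to 16% in the interactions. Of 4-fold changes, 85 to 93% and 61 to 66% were recovered. Log ratios of summed CPM used a prior count of 2. Intervals are exact binomial. Tables and plots were made in Python 3.11.15 with pandas 2.3.3, scipy 1.17.1, matplotlib 3.10.9 and numpy 2.4.6.

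Any gene of the lists could be named. In each group comparison and interaction, up to 8 calls from the top and 8 from the bottom of the fold change ranking were named where libraries did not overlap between groups. Against other cardiomyocyte nuclei, the 15 highest and 10 lowest mean ratios with the same sign in 6 of 6 libraries and at least 20 CPM were named. The rule for stress-type nuclei and the lists were chosen with earlier results of these data known. Alternatives were a threshold of 3 UMIs, thinning, no mitochondrial filter, 0 UMIs of other-type genes, doublets, atrial-type or conduction-type nuclei left out, DESeq2 1.42.0 size factors or Wald test, no count filter, each selection gene or library left out, and, chosen after seeing the data, nuclei with at least 5 Ryr3 UMIs left out. The interaction was rerun only with DESeq2 size factors or Wald test, no count filter, a library left out, or Ryr3-rich nuclei left out. Paralogs such as Hspa1a and Hspa1b share reads in these counts. Some items are not reported here.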

Additional observations from a re-analysis of the deposited data

Results flagged for a closer look

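The genes below changed between groups differently in stress-type and in other cardiomyocyte nuclei by the interaction test of edgeR, with libraries that did not overlap between the groups. Values are differences of log2 fold changes, stress-type minus other nuclei.

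For R403Q-CD against WT-CD they were Ankrd1 (0.98), 2010001K21Rik (-0.77) and the haemoglobin gene Hbb-bs (-0.67). The calls of 2010001K21Rik and Hbb-bs were lost without WT-CD 1, without WT-CD 2 and with DESeq2, and that of Hbb-bs also without R403Q-CD 2, at adjusted p up to 0.674 and 0.286.

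For R403Q-EMPA against R403Q-CD, the positive differences were those of Pcdh11x (5.90), P3h2 (2.66), the adhesion molecule gene Alcam (2.61), Arhgap31 (1.90), the ligand gene Wnt5b (1.34), Ldlrad3 (1.13), Tgfb2 (1.11) and Kalrn (0.50). The negative ones were those of Gm30624 (-1.79), Ripor2 (-0.97) and the ephrin receptor gene Ephb1 (-0.60). With DESeq2, only Arhgap31 and Ripor2 kept their call. All 11 lost their call without R403Q-EMPA 1, and the largest, Pcdh11x, rests on 2 UMIs in stress-type nuclei of R403Q-CD.

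For R403Q-EMPA against WT-CD, positive differences were found for Grip1 (3.57), Kirrel3 (3.44), P3h2 (2.69), Tpm2 (2.61), Ldlrad3 (2.37), Lypd6 (2.30), Tgfb2 (1.51) and Gask1b (1.502). Negative ones were found for 4930588A03Rik (-1.78), Plekhh1 (-1.20), Ripor2 (-1.20), Gm42209 (-1.04), Mylk4 (-0.99), the haemoglobin gene Hba-a2 (-0.94) and Osbpl6 (-0.92). Ldlrad3, Tgfb2, Ripor2, Gm42209 and Mylk4 kept their call without each library, and Ldlrad3 and Tgfb2 lost it with DESeq2. The other 10 lost it without R403Q-EMPA 1.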

How the results depend on the processing

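No paired analysis was possible because the replicate numbers were given in deposit order and pair no libraries. Without the mitochondrial filter, the share of stress-type nuclei differed by -3.79 percentage points between R403Q-CD and WT-CD and by 11.5 between R403Q-EMPA and WT-CD, and the log2 ratio of Acta1 turned to -0.0411. Leaving out libraries in turn gave shares differing by 7.85 to 17.5 points (R403Q-CD minus WT-CD), 9.66 to 18.9 (R403Q-EMPA minus R403Q-CD) and 22.1 to 31.8 (R403Q-EMPA minus WT-CD).

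For the mutation on control diet, for EMPA within R403Q, and for R403Q-EMPA set against WT-CD, in this order, the called genes in stress-type nuclei numbered 21, 118 and 652. Leaving out a library in turn gave 0 to 31, 8 to 357 and 174 to 839. Applying the rule after thinning gave 8, 73 and 390, and no filter on low counts 195, 598 and 1207. Leaving out conduction-type nuclei gave 12 and 62 in the first 2, and DESeq2 49 in the first. Interaction calls numbered 4, 11 and 56. They ranged over 1 to 9, 0 to 32 and 15 to 77 without a library and were 43, 102 and 147 with no filter. DESeq2 gave 1, 2 and 31, and leaving out Ryr3-rich nuclei 7 and 37 in the last 2.

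The 73 genes set apart higher ranged from 65 to 90 without a library and were 39 when Slc24a2 was left out of the rule. The 22 set apart lower ranged from 24 to 43 without a library. They numbered 41 at 3 or more UMIs, 39 after thinning, 833 with no mitochondrial filter, 42 without conduction-type nuclei, 8 with depth-weighted other nuclei and 34 without Kctd16 in the rule.

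Of 531 values of named group changes with a library left out, 335 kept their call and 196 did not, and no named group change reversed in any alternative. Under other settings, 828 of 937 kept it. For interactions, 111 of 180 and 88 of 120 did. The causes were not tested. With 2 libraries per group, depth limits low genes: 3 UMIs are 0.479 CPM in the WT-CD sums and 0.179 CPM in the R403Q-EMPA sums.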
